A study of Hordeum vulgare with 21 samples.

Results

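The first 24 h of germination after steeping were described by comparing barley grain at 1 day of germination (DoG1) with grain taken out of the steep (DoG0). The comparison used 6 of the 21 libraries of the series, replicates A, B and C of each stage, chosen by their labels alone. All grain was Hordeum vulgare cultivar Conrad, a spring malting barley, drawn from one lot made by pooling 5 grain samples from 4 growing regions, and the malted stages came from 3 small-scale malting runs of 110 g. DoG0 grain had been steeped for 38 h in total, alternating between 4 h in water (16 °C) and 4 h in air (18 °C), and reached 45% moisture. DoG1 grain had then been kept for 24 h of a germination phase run at 17 °C. The other 15 libraries, dry unmalted grain (Dry) and grain at days 2 to 5 of germination (DoG2 to DoG5), were used to describe where the changing genes stood before and after. All replicates come from a single grain lot, so the tests do not measure the spread between crops or cultivars. The spread was estimated over all 21 libraries, unmalted dry grain included, and is not that between malting runs alone.

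Germination starts when a dry grain takes up water and its embryo resumes respiration, transcription and translation. Dry cereal grain carries stored messenger RNA from its development on the mother plant, and these messages are degraded or replaced as germination proceeds. In barley the embryo releases gibberellin, the aleurone layer around the starchy endosperm answers with hydrolytic enzymes, and these open cell walls and break down starch and protein, which is the purpose of malting. The deposited tables hold gene IDs without names, and none of the 35826 IDs matched the 58438 genes of the reference table. Genes are therefore described by group and by their levels, 4 IDs are named, no function is given to any ID, and the grain tissues could not be checked against their marker genes. The labels give the tissue as seed and name no dissection, so a change in the share of cells of a tissue and a change of RNA within its cells cannot be told apart.

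The 6 libraries held 21252956 to 31582116 expected counts, which are read counts estimated per gene by the authors and need not be whole. At this depth 3 counts in a library corresponded to 0.0950 to 0.141 CPM (counts relative to the scaled size of the library), a limit that covers counting error only. Across genes, Pearson's r of log2 CPM ran from 0.973 to 0.987 between DoG0 replicates and from 0.970 to 0.978 between DoG1 replicates. Genes at 1 or more TPM (an abundance that corrects for transcript length and has the same total in every library) numbered 16667 ± 189 at DoG0 and 17900 ± 335 at DoG1 (SD, n = 3 each), with depth not equalised. Dry replicate A stood apart from the other dry libraries by a low scaling factor, and the classes based on dry grain and the comparison of DoG5 with dry grain were repeated without it.

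More genes rose than fell during the first day, and the rises were larger. Of 20637 tested genes 10771 changed, a background of 52.2% (edgeR's quasi-likelihood test, Benjamini-Hochberg adjusted p under 0.05). Transcripts of 5851 genes rose (28.4%) and those of 4920 fell (23.8%). Both groups were broad: 90% of the rises had a fitted log2 fold change between 0.38 and 5.49, and 90% of the falls between -2.32 and -0.33. The 3 DoG1 libraries lay entirely above or below the 3 DoG0 libraries for 5445 of the genes that rose and for 4653 of those that fell, where such separation was seen in 58.2% of all tested genes. A stricter test, of a change larger than 2-fold (edgeR glmTreat, adjusted p under 0.05), called 2583 genes (12.5%), of which 2016 rose and 567 fell. The majority direction depended on the scaling: without TMM factors there were 6714 rises against 3692 falls, and after removal of the trend over transcript length 5271 against 5808.

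The imbalance between rises and falls grew with the size of the change. There were 3690 rises (17.9%) and 1736 falls (8.41%) of 2-fold or more, 2001 and 362 of 4-fold or more, and 1162 (5.63%) and 109 (0.528%) of 8-fold or more. At 32-fold or more there were 380 rises and 7 falls. Part of the largest fitted folds belonged to genes without any count at DoG0, where the fold rests on the prior of the fit. There were 232 such genes among the rises, with a median of 26 counts over the 3 DoG1 libraries, and 41 of them had 10 counts or fewer. With these genes, and the 7 that fell to no count, placed at a floor of 3 counts per library, there were 982 rises and 103 falls of 8-fold or more, and 228 and 2 of 32-fold or more. The median log2 fold change of the rises was 1.39 as fitted and 1.32 with the floor.

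**Figure D1:**
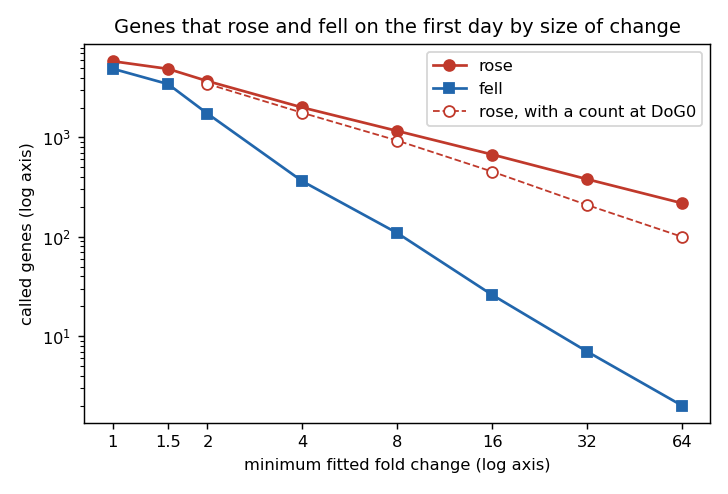
Number of called genes (log axis) that rose or fell between DoG0 and DoG1 by at least the fold on the horizontal axis (log axis). Filled symbols are all called genes by fitted fold, and open symbols are rises without the genes that had no count at DoG0. The filled curves start close together, at 5851 rises and 4920 falls, and part to 1162 rises and 109 falls at 8-fold.

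Rises of 8-fold or more were found mostly among genes of low abundance. Genes were divided by their mean CPM in the 15 libraries outside the comparison, and only the 20130 that passed the count filter on those libraries were used, of which 28.3% rose and 24.2% fell, 5.32% and 0.472% by at least 8-fold. The 507 genes left out had passed only with the help of the compared libraries, and 157 of them rose, 91 by at least 8-fold, and 51 fell. Among 3038 genes under 1 CPM 830 rose and 231 fell, and 405 rose by at least 8-fold (13.3%). Among 6265 genes at 1 to 10 CPM 1872 rose and 1202 fell, and 444 rose by at least 8-fold (7.09%). At 10 to 100 CPM there were 2375 rises and 2740 falls among 8692 genes, with 190 rises of 8-fold or more (2.19%). Above 100 CPM 617 of 2135 genes rose (28.9%) and 696 fell (32.6%), with 32 rises and 21 falls (0.984%) of 8-fold or more. In the lower bands 33 genes under 1 CPM fell by at least 8-fold (1.09%), 28 at 1 to 10 CPM (0.447%) and 13 at 10 to 100 CPM (0.150%). Called changes were larger at low levels in both directions. Their median log2 fold changes were 2.96 and -1.72 under 1 CPM, and 0.70 and -0.67 above 100 CPM.

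**Figure D2:**
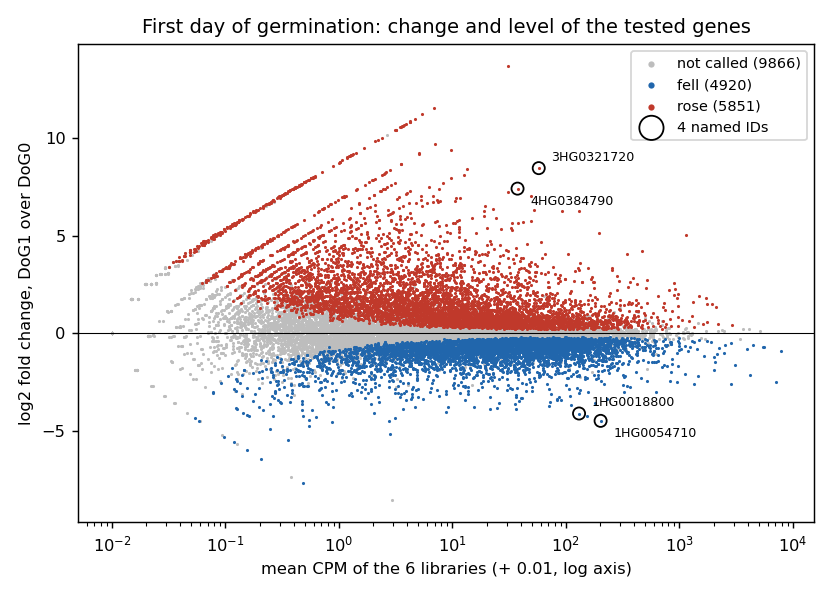
Fitted log2 fold change of DoG1 over DoG0 against mean CPM of the 6 libraries plus 0.01 (log axis) for all 20637 tested genes. Red points rose, blue points fell, grey points were not called, and circles mark the 4 named IDs. Rises reach far higher than falls at low CPM, and the diagonal streaks are genes with no or few counts at DoG0.

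Losses of abundance were concentrated in fewer genes than gains. Differences between stage means summed to 230315 TPM, or 23.0% of the pool, in each direction, which are equal because TPM has a fixed total. Losses were spread over 10633 genes and gains over 15242. The 134 genes with the largest losses made up 50% of the loss, and 340 genes made up 50% of the gain. The 10 largest losses were 21.5% of all loss, and the 10 largest gains 9.05% of all gain. The largest single loss was 27201 TPM and the largest single gain 4228 TPM, so the share of the 10 largest losses rests largely on a single gene. Among the 100 genes with the largest gains in TPM 89 were called as rises, and among the 100 with the largest losses 89 were called as falls. Of all tested genes 28.4% rose and 23.8% fell. The ranking used the same libraries as the calls, so these high counts follow largely from the choice. The most abundant gene of each library held 33658 ± 3073 TPM at DoG0 and 6728 ± 873 TPM at DoG1 (SD, n = 3 each).

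The genes that rose held 17.5%, 13.3% and 14.3% of TPM in DoG0 replicates A, B and C, and 34.6%, 30.4% and 35.3% in the DoG1 replicates. Those that fell held 43.3%, 50.4% and 48.4% at DoG0 and 26.0%, 28.2% and 25.2% at DoG1. These shares were chosen on the same libraries and describe the size of the shift, with no test. DoG0 replicate A had the highest share of the rising genes and the lowest share of the falling ones among the DoG0 libraries. Among the DoG1 libraries replicate B had the lowest share of the rising genes. By expected counts, which do not correct for length, the rising genes went from 14.3% ± 2.04 to 30.5% ± 2.22 and the falling ones from 49.1% ± 3.94 to 29.5% ± 1.42 (SD, n = 3 each).

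Relative to the DoG0 mean, the median log2 CPM of the rising genes was 0.16, -0.10 and -0.06 in DoG0 replicates A, B and C and 1.24, 1.07 and 1.48 in the DoG1 replicates. That of the falling genes was -0.16, 0.12 and 0.04 at DoG0 and -0.81, -0.72 and -0.79 at DoG1. DoG0 replicate A thus lay toward DoG1 in both groups and DoG1 replicate B toward DoG0, by far less than the distance between the stages. Leaving out 1 of the 6 libraries at a time left 8972 to 10708 called genes.

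Genes switched on were defined as called rises with less than 0.5 TPM in each DoG0 library and at least 2 TPM in each DoG1 library, and genes switched off by the reverse. By this rule 175 genes were switched on (0.848% of those tested) and 3 were switched off (0.0145%). Their median level was 0.20, 0.07 and 0.08 TPM in DoG0 replicates A, B and C and 6.57, 3.52 and 7.62 TPM in the DoG1 replicates, so replicate B was again the lowest at DoG1. The mean DoG1 level ran from 2.47 to 42.1 TPM, with 44 genes at 10 TPM or more and none at 50 TPM. All 175 passed the test of a change larger than 2-fold, which follows largely from the gap that the rule sets in the same libraries. Of the 175 genes, 17 had no count in any DoG0 library. Whole counts in every library of the series, and thus no reads shared with other genes, were found for 130. Together they held 0.149% ± 0.0536 of TPM at DoG1 (SD, n = 3). The number depended on the rule and on the libraries: 291 genes were switched on without DoG0 replicate A and 286 without DoG1 replicate B.

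The 3 genes switched off had median levels of 3.18, 3.71 and 4.97 TPM in DoG0 replicates A, B and C and 0.14, 0.16 and 0.22 TPM in the DoG1 replicates. All 3 had at least 1 TPM in every dry library, and 2 stayed under 1 TPM in every library of days 2 to 5. Without DoG0 replicate A 9 genes met the rule, and without DoG0 replicate B, DoG1 replicate B or DoG1 replicate C 6, 8 and 8 did. Of the 109 genes that fell by at least 8-fold, 34 still had at least 1 TPM in every DoG1 library, and their median went from 4.95 ± 0.930 to 0.447 ± 0.0681 TPM (SD, n = 3 each). No gene with a mean of at least 1 CPM at DoG0 lost all counts at DoG1, whereas 45 genes went from no count in any DoG0 library to a mean of at least 1 CPM, at most 61.4 CPM.

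Most genes switched on during the first day were low in dry grain, and many were still present on day 5. Under 1 TPM in every dry library were 144 of the 175, and 5 had at least 1 TPM in every dry library, or 145 and 7 without Dry replicate A. At 1 TPM or more in every library were 136 at DoG2, 115 at DoG3, 117 at DoG4 and 112 at DoG5. Of all tested genes 68.6% were at that level in dry grain, and 81.0%, 80.0%, 82.4% and 80.8% at DoG2 to DoG5. Of the 175 genes, 77.7% were at DoG2. There were 109 at that level in all 12 libraries of days 2 to 5, and 14 under it in all of them. The median of the group was 4.18 ± 0.557 TPM at DoG2 and 3.26 ± 0.545 TPM at DoG5, against 5.90 ± 2.13 TPM at DoG1 (SD, n = 3 each). The levels at DoG0 and DoG1 chose the genes and are given as a description. Low levels in dry grain are no independent result, since every member was chosen as under 0.5 TPM at DoG0. The 1162 genes with rises of 8-fold or more had a median of 0.0867 ± 0.0462 TPM at DoG0, 2.80 ± 0.993 at DoG1, 2.51 ± 0.183 at DoG2 and 1.98 ± 0.251 at DoG5. Their share of TPM went from 0.180% ± 0.0737 at DoG0 and 3.02% ± 0.892 at DoG1 to 5.57% ± 0.477 at DoG2 and 6.24% ± 0.369 at DoG5.

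**Figure D3:**
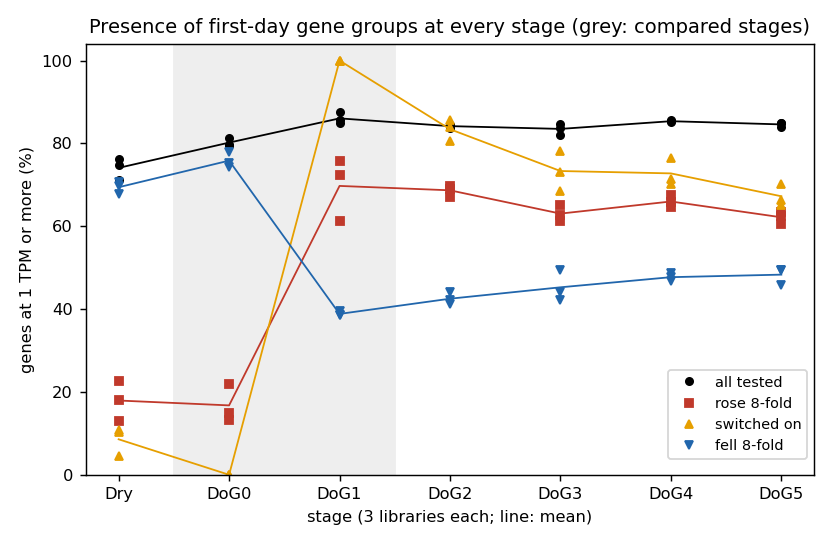
Share of genes at 1 TPM or more in each library (points) and its mean per stage (lines), for all tested genes, genes that rose or fell by at least 8-fold on the first day, and the 175 genes switched on. The values at DoG0 and DoG1, shaded, follow from the choice of the genes. Outside them, the genes switched on lie at 4.57% to 10.9% in dry grain and at 65.1% to 70.3% at DoG5. All tested genes lie at 71.1% to 76.2% in dry grain and at 84.0% to 84.9% at DoG5.

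The level of a gene in dry grain, which was not used in the comparison, went with its direction on the first day. This description again used the 20130 genes, with 28.3% rising and 24.2% falling. Genes without a count in any dry library rose in 261 of 505 cases (51.7%) and fell in 3. Genes with a count but a mean under 1 TPM in dry grain rose in 1665 of 4143 cases (40.2%) and fell in 282 (6.81%). At 1 to 10 TPM in dry grain 28.4% rose and 19.7% fell, at 10 to 100 TPM 1524 of 7259 rose and 36.7% fell, and at 100 to 1000 TPM 23.6% rose and 37.1% fell. Of the 99 genes above 1000 TPM in dry grain 9 rose and 59 fell, 41 of them by at least 2-fold.

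In the middle of the range the lead of falls depended on the scaling. In the bands from 10 to 1000 TPM falls led by 27.1% against 26.0% and 30.9% against 30.0% without TMM factors. With the length trend removed they led by 43.0% against 17.2% and 47.4% against 17.6%. At both ends the direction held in the 4 other settings tried: falls outnumbered rises above 1000 TPM, with 55 to 69 falls and 7 to 11 rises, and rises outnumbered falls among genes without a dry count, with 184 to 264 rises and 2 or 3 falls. Of the 100 genes most abundant in dry grain 60 fell and 9 rose, and 56 of the 100 chosen without Dry replicate A fell. Bands set without that library held from 49.0% rises and 0.637% falls among genes without a dry count to 10.4% rises and 56.2% falls above 1000 TPM.

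**Figure D4:**
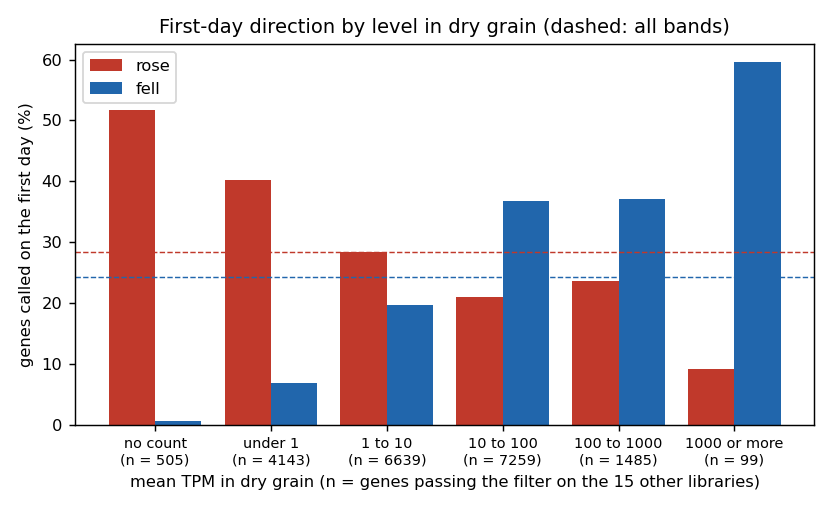
Share of genes that rose (red) or fell (blue) on the first day, by mean TPM in dry grain, for the 20130 genes that passed the count filter on the 15 other libraries. Dashed lines give the shares over all bands, 28.3% and 24.2%. Rises lead at low dry-grain levels and falls at high ones, from 51.7% rises without a dry count to 59.6% falls above 1000 TPM. Genes near the count floor at DoG0 have little room to be called as falls.

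Most genes that were low in dry grain and abundant later were among the first-day rises. There were 119 genes under 1 TPM in every dry library and at 10 TPM or more in every DoG2 library, and 108 of them rose on the first day (90.8%), 82 by at least 8-fold, and none fell. Their median level was 0.34, 0.15 and 0.16 TPM in DoG0 replicates A, B and C and 11.5, 4.44 and 8.86 TPM in the DoG1 replicates, with no overlap between the stages. Of 105 genes under 1 TPM in every dry library and at 10 TPM or more in every DoG5 library, 77 rose (73.3%) and 1 fell on the first day. Their median was 0.36, 0.27 and 0.15 TPM at DoG0 and 4.83, 2.40 and 3.70 TPM at DoG1. With dry levels taken without Dry replicate A, 79 of 108 such genes rose, and 110 of 122 for the class at DoG2. Both shares stand beside 28.3% among all 20130 genes, of which 5.32% rose and 0.472% fell by at least 8-fold. Genes of both classes must rise at some step between dry grain and the later day. Shares above that of all genes thus follow in part from the choice, and rises at the other steps were not counted.

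Genes that disappeared from the grain were far fewer. Only 16 genes had at least 10 TPM in every dry library and less than 1 TPM in every DoG5 library. Of these 13 fell on the first day, all by at least 2-fold, and none rose. Among all 20130 genes 24.2% fell, 8.37% by at least 2-fold. The median level of the 16 genes was 6.54, 7.42 and 8.66 TPM in DoG0 replicates A, B and C and 1.70, 2.20 and 1.84 TPM in the DoG1 replicates. Of 21 genes under 1 TPM at DoG2 in place of DoG5, 14 fell (66.7%) and none rose. Without Dry replicate A 13 of 18 and 15 of 22 fell. Genes of these classes must fall at some step after dry grain, so their shares of falls also follow in part from the choice. By contrast, 6899 genes had at least 10 TPM in every library of dry grain and of days 2 to 5. In this lasting group 1535 rose (22.2%) and 2560 fell (37.1%), against 28.3% and 24.2% of all 20130 genes, with 17 rises and 24 falls of at least 8-fold, and without TMM factors the order turned, with 1942 rises and 1900 falls. Without Dry replicate A the group held 7496 genes, of which 22.9% rose, 34 by at least 8-fold, and 36.0% fell. The median level of the 6899 genes was 55.8, 52.0 and 54.5 TPM at DoG0 and 55.4, 53.0 and 51.0 TPM at DoG1.

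The share of first-day rises was also counted among the abundant transcripts of day 5. Of the 100 genes most abundant at DoG5, 47 rose between DoG0 and DoG1, 11 of them by at least 8-fold, and 22 fell. Of the 1000 most abundant at DoG5, 389 rose (38.9%) and 236 fell (23.6%), against 28.3% and 24.2% of all 20130 genes, so that the share of falls was near the background. Rises remained in the majority in the 4 other settings tried, by 42 against 31 and by 330 against 306 with the length trend removed.

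First-day changes were set against the difference between day 5 and dry grain, a comparison that shares no library with DoG0 or DoG1. Of the 5694 rising genes among the 20130, 3475 (61.0%) were higher at DoG5 than in dry grain and 711 (12.5%) were lower, against 37.4% and 32.8% of all 20130 genes (edgeR, adjusted p under 0.05). Of the 4869 falling genes, 2859 (58.7%) were lower at DoG5 and 835 (17.1%) were higher. Seen from the other list, the 3475 were 46.1% of the 7535 genes higher at DoG5 and the 2859 were 43.2% of the 6612 lower ones. Without Dry replicate A 3302 rising genes were higher at DoG5. All contrasts came from one fit and share its estimate of the spread. The interval from dry grain to DoG5 also contains the first day, so a shared direction follows in part from that.

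Changes after the second day were also measured in libraries outside the comparison. Between DoG2 and DoG5, 1140 of the 5694 rising genes (20.0%) fell and 489 (8.59%) rose, against 12.7% falling and 13.5% rising among all 20130 genes. Of the 4869 falling genes 1101 (22.6%) rose and 376 (7.72%) fell in that interval. On the third day, from DoG2 to DoG3, 173 genes fell in all (0.859%), and 73 of these (42.2%) had risen on the first day, against 28.3% of all 20130 genes. The 236 genes that rose on the third day (1.17%) included 91 (38.6%) that had fallen on the first, against 24.2% of all.

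Of the 2 named IDs that rose, HORVU.MOREX.r3.3HG0321720, on chromosome 3H by its ID, was highest at DoG1. It had 13, 5 and 8 counts in DoG0 replicates A, B and C and 2466, 2217 and 5985 counts in the DoG1 replicates, that is 0.466, 0.197 and 0.297 CPM against 105.4, 66.3 and 173.1 CPM. The DoG1 libraries differed among themselves by less than 3-fold and all lay far above the DoG0 libraries. The log2 fold change was 8.46 (SE 0.68, edgeR adjusted p = 1.47e-07), and the settings tried gave 7.06 to 8.79. In the other stages it was low, at 0.117 ± 0.203 CPM in dry grain, 0.748 ± 0.366 at DoG2 and 0.183 ± 0.164 at DoG5 (SD, n = 3 each), and no difference between DoG5 and dry grain passed the test (edgeR adjusted p = 0.593). The small difference between DoG2 and dry grain did (log2 fold change 2.67, edgeR adjusted p = 0.0240).

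The second rising ID, HORVU.MOREX.r3.4HG0384790, on chromosome 4H, appeared on the first day and was kept. It had 0.753, 0.315 and 0.223 CPM in DoG0 replicates A, B and C and 103.6, 37.6 and 82.4 CPM in the DoG1 replicates, where replicate B was the lowest. The log2 fold change was 7.41 (SE 0.44, edgeR adjusted p = 1.73e-08), 8.06 without DoG0 replicate A and 5.45 with limma on log2(TPM + 1). Levels then ran from 44.3 ± 6.31 CPM at DoG2 to 19.1 ± 3.91 CPM at DoG5, above the 0.893 ± 0.352 CPM of dry grain (SD, n = 3 each; DoG5 over Dry log2 fold change 4.41, edgeR adjusted p = 5.47e-08). From DoG2 to DoG5 it fell by 1.21 on the log2 scale (edgeR adjusted p = 0.00928).

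Of the 2 named IDs that fell, HORVU.MOREX.r3.1HG0054710, on chromosome 1H, had 315.4, 432.1 and 413.2 CPM in DoG0 replicates A, B and C and 15.3, 18.7 and 18.0 CPM in the DoG1 replicates. The replicates of each stage lay close together and the stages far apart, with a log2 fold change of -4.48 (SE 0.39, edgeR adjusted p = 3.02e-07). It went on to 3.96 ± 0.501 CPM at DoG2 and then stayed level, at 5.07 ± 0.955, 4.67 ± 0.410 and 4.76 ± 1.09 CPM at DoG3, DoG4 and DoG5 (SD, n = 3 each). Dry grain held more, 7290 CPM in replicate A, 2053 CPM in B and 2143 CPM in C. Per length, its abundance at DoG0 was 1256 ± 142 TPM (SD, n = 3).

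The other falling ID, HORVU.MOREX.r3.1HG0018800, also on chromosome 1H, had a trough at DoG1. It had 201.2, 239.1 and 300.0 CPM in DoG0 replicates A, B and C and 19.0, 9.16 and 14.9 CPM in the DoG1 replicates, a log2 fold change of -4.11 (SE 0.37, edgeR adjusted p = 3.45e-07). At DoG2 its 3 libraries held 98.7, 113.0 and 94.5 CPM, all above every DoG1 library and below every DoG0 library. It remained at 109.5 ± 8.17 CPM at DoG3 and 108.3 ± 27.0 CPM at DoG5, and no difference between DoG5 and DoG2 passed the test (log2 fold change 0.09, edgeR adjusted p = 0.867). Dry grain held 3794 ± 2249 CPM, and replicate A with 6302 CPM lay above B with 3122 CPM and C with 1957 CPM (SD, n = 3 each).

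**Figure D5:**
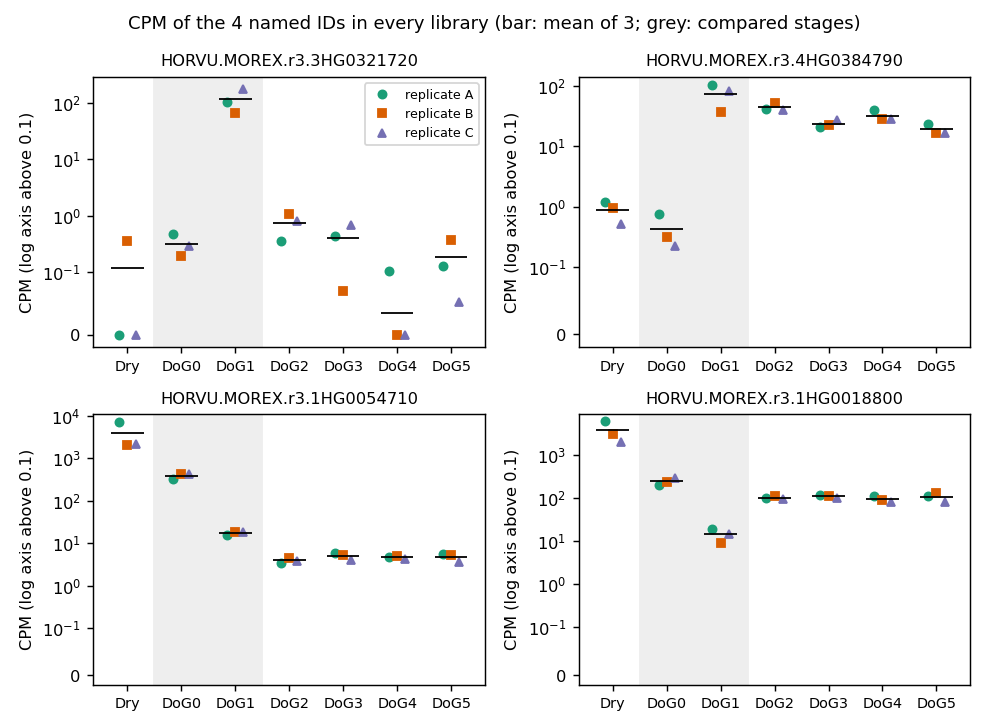
CPM of the 4 named IDs in every library of the 7 stages, with the mean of 3 libraries as a bar and the compared stages shaded (log axis above 0.1 CPM, linear below). HORVU.MOREX.r3.3HG0321720 peaks at DoG1, HORVU.MOREX.r3.4HG0384790 stays up, HORVU.MOREX.r3.1HG0054710 stays down, and HORVU.MOREX.r3.1HG0018800 dips at DoG1 and returns by DoG2 to 94.5 to 113.0 CPM.

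The share of genes called as falls of any size was larger among longer transcripts, but that of strong falls was not. Relative transcript length was derived for 20472 of the tested genes by dividing expected counts by TPM. In the shortest of 5 equal groups 29.1% of genes rose and 15.7% fell, and 8.52% rose by at least 8-fold. In the longest group 23.4% rose and 31.2% fell, and 2.76% rose by at least 8-fold. The share of falls of any size increased over the 5 groups, from 15.7% through 21.3%, 23.6% and 28.2% to 31.2%. Falls of at least 2-fold went the other way, with 9.45% in the shortest group and 7.89% in the longest. Falls of at least 8-fold made up 0.928% and 0.171% of these groups. Across genes, Spearman's rho of log2 fold change with length was -0.0944, and -0.00423 after the length trend of each library was removed. Genes are no independent replicates, and the part of length in the result was not tested further.

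First-day changes were spread over the whole genome. By the chromosome code in the ID, the share of tested genes that rose ran from 27.6% on 2H to 29.1% on 7H, and the share that fell from 22.9% on 1H to 24.7% on 3H. Rises of at least 8-fold made up 4.97% of the tested genes on 5H and 6.15% on 7H, the lowest and the highest of the 7 chromosomes. Among 33 tested genes without a chromosome 10 rose and none fell.

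Genes with strong rises often had IDs that follow each other in number. Of 718 genes that rose by at least 8-fold and whose next ID on the same chromosome was also tested, 122 (17.0%) had a next ID that rose by at least 8-fold too, where 5.63% of all tested genes did. Restricted to genes with whole counts in all libraries, which share no reads, it was 55 of 448 (12.3%) against 5.08%. For rises of any size the next ID rose in 33.5% of cases against 28.4%, and for falls the next ID fell in 28.0% against 23.8%. Falls of at least 8-fold had a next ID that fell as strongly in 1 of 72 cases (1.39%), against 0.528% of all tested genes. With a single case this share cannot be set against that of the rises. There were 15 runs of 3 or 4 consecutive IDs that rose by at least 8-fold, 48 genes in all, on each of the 7 chromosomes. The most abundant run, 3 IDs on 3H, went from a summed 196.8 TPM at DoG0 to 5780 TPM at DoG1. Only 2 of the 15 runs had whole counts throughout, so the division of reads among the members of the other runs is uncertain.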

How the data were processed

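Poly-A selected RNA of seed was sequenced with a strand-keeping kit (TruSeq Stranded mRNA), per the labels' protocols. The authors deposited expected counts and TPM for 35826 IDs; per the submitters' processing notes STAR and RSEM were used, while versions, genome build, annotation and strand setting were not given in the sources used here. Expected counts were rounded and filtered with filterByExpr by stage (minimum count 10, minimum total 15), which kept 20637 genes and left out 15189. TMM scaling and 1 quasi-likelihood model of 7 stage means over 21 libraries were used (edgeR 4.0.16, R 4.3.3), with Benjamini-Hochberg adjustment over all tested genes at 0.05. A fitted fold is relative to the pool of each library. CPM use TMM-scaled sizes and log2 CPM a prior count of 2. Standard errors are the absolute log2 fold change over the square root of F. Alternatives used DESeq2 1.42.0 and limma 3.58.1 on log2(TPM + 1) and log2(TPM + 0.1).

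Named IDs are those 2 that rose and 2 that fell most on the log2 scale among called IDs with 50 CPM or more on average at the higher stage, no overlap between replicates and whole counts (within 1e-09) in all libraries. The comparison, its groups and lists were chosen with earlier results of these data known. The division of genes by their level in the 15 other libraries, and the filter on those libraries, were chosen after the data were seen. Gene lists and marker lists by gene name could not be used, since no ID has a name here.

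No replicate pair was a repeat of one library (chi-square over its degrees of freedom 20.4 to 63.5). Replicate letters were not treated as pairs: deviations of same-letter DoG0 and DoG1 libraries correlated at 0.0972, 0.0120 and -0.0927 across genes. In simulated data for this comparison with 20637 genes, 9 of 50 genes changed 1.5-fold, 35 of 50 genes changed 2-fold, 47 of 50 changed 4-fold and all 50 changed 8-fold were called, with 9 calls among 20437 unchanged genes. The changed genes were drawn only from those at 1 CPM or more at DoG0, before TMM scaling. The simulated spread followed the fitted trend over level. Recovery at lower levels, where many of the large rises lie, was not tested.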

Additional observations from a re-analysis of the deposited data

How the results depend on the processing

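The number of changed genes lay between 8972 and 11494 in all planned settings, within 1.5 times the reported 10771, as did the numbers of rises and of falls. Across the 6 settings that leave out a library, 8972 to 10708 genes changed, 4844 to 5531 rose and 4072 to 5177 fell, and 1917 to 3013 changed beyond 2-fold. The labels do not say that a letter marks a shared run: with a replicate block over the 18 malted libraries 11494 genes changed, against 11687 in a fit without it added after the data were seen, and no named ID lost its call. Scaling by library size only gave 64.5% rises among the called genes and moved the median over all genes from 0.06 to 0.19 (log2). DESeq2 called 11145 genes and the 6 libraries alone 8980. Folds on TPM were compressed by the pseudocount: limma on log2(TPM + 1) called 275 rises and 27 falls of at least 8-fold. Shares rising and falling in the classes set by dry grain stayed within 1.5 times without Dry replicate A, chosen after the data were seen. The 4 named IDs kept direction and call in all 19 settings. The numbers switched on and off also moved: 175 to 291 and 3 to 9 genes without 1 library (Dry replicate A included), 80 and 0 with limits of 0.1 and 1 TPM, 86 and 3 with 1 and 5 TPM, and 45 and 0 with no count at one stage and 1 CPM at the other. At 0.5 TPM 9 switched-on genes were present in every dry library, and at 2 TPM 0 of the 3 switched off were present in every DoG5 library. By expected counts the DoG1 shares were 30.5% for rises and 29.5% for falls. Genes near 3 counts per library are the limit of depth.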

Other observations

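One library of the first day held transcripts that its replicates lacked. In DoG1 replicate C 17 genes had at least 10 counts and none in DoG1 replicates A and B, with 18198 counts in all, against 5 genes each with 568 and 68.4 counts in replicates A and B. Nearly all of these counts came from 3 genes with the same expected count, 5878 each, which together held 716.2 TPM in that library and had 0 counts in the other 20. These 3 did not pass the filter and were not tested. Their equal counts are shared estimates and not independent values.

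Of 903 genes that stayed under 1 TPM in every library of dry grain and of days 2 to 5 and passed the filter on those libraries, 255 (28.2%) rose on the first day and 61 (6.76%) fell, against 28.3% and 24.2% of all 20130 genes passing that filter. The share of rises was thus at the background and the share of falls below it. Without Dry replicate A 255 of 930 rose and 66 fell. The rises had a median log2 fold change of 2.96, at levels near the limit of depth: the median of the group went from 0.247 TPM at DoG0 to 0.417 TPM at DoG1. Among genes without a count in any DoG5 library, 7 of 32 rose (21.9%) and 11 fell (34.4%), beside the same background.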
